A study of Homo sapiens with 35 samples.

Results

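The genes described here are 6 APOBEC3 cytidine deaminases, APOBEC3B, APOBEC3C, APOBEC3D, APOBEC3F, APOBEC3G and APOBEC3H, out of 18404 genes that the arrays measured with a transcript cluster of 1 gene symbol. They were taken by name, because APOBEC3G stood far higher in HCT116 cells carrying a hairpin against CDK8. Values of the shCDK8 line therefore chose the set and are given as a description, with no test. Each gene is represented by 1 transcript cluster, the one with the highest mean over all 35 arrays: 8073062 for APOBEC3B, 8073068 for APOBEC3C, 8073072 for APOBEC3D, 8073081 for APOBEC3F, 8073088 for APOBEC3G and 8073096 for APOBEC3H. A cluster that lists APOBEC3A together with APOBEC3A_B has several symbols and stayed outside the set.

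APOBEC3 enzymes remove the amino group from cytosine in single-stranded DNA and leave uracil, which mutates the DNA or marks it for repair. The family is best known from lymphoid and myeloid cells, where APOBEC3G, APOBEC3F, APOBEC3D and some forms of APOBEC3H enter retroviral particles and damage viral complementary DNA, and where several members respond to interferon. APOBEC3B is largely nuclear and is tied to cytosine mutations in tumours. The genes lie side by side on chromosome 22, between CBX6 and CBX7. The members share stretches of sequence, the probe sequences were not used here, and signal shared between members was not tested.

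HCT116 is an established human colorectal carcinoma line. Total RNA from 3 hairpin lines was hybridised to 35 arrays: the line shControl carries a non-target hairpin, shCDK8 a hairpin against CDK8 and shCDK19 a hairpin against its paralogue CDK19. CDK8 and CDK19 are alternative kinases of Mediator, a coactivator of RNA polymerase II. There were 14 groups in 4 experiments. Untreated cells in normal growth gave 3 arrays per line. Treatment for 12 h with 5-fluorouracil (5FU), an antimetabolite, gave 2 arrays per line, beside 2 of shControl cells given DMSO. Low glucose for 24 h gave 3 arrays per line, beside 3 of shControl cells kept in high glucose. Hypoxia, at 1% oxygen for 24 h, gave 2 arrays per line. Knockdown lines in DMSO or high glucose, and normoxic cells of the hypoxia experiment, were not analysed here. Each target had 1 hairpin line, so a property of that line and loss of its target cannot be told apart. The labels do not say that replicates came from separate cultures, so errors and p-values cover only how far these arrays differ, which may be a technical spread.

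All values are log2 signals as deposited, with a floor of 4.32 (a linear signal of 20) shared by all arrays. Between 8.48% and 9.97% of transcript clusters lay at the floor of an array, and replicates of a group correlated at 0.976 to 0.998 across clusters. The lowest correlation was that of the 2 shControl arrays in hypoxia. The cluster of CDK8, which also lists ADRA1B, was lower in shCDK8 than in shControl cells by a difference of -2.12 ± 0.24 (SE) in normal growth, -2.74 ± 0.16 in 5FU, -2.13 ± 0.11 in low glucose and -2.03 ± 0.20 in hypoxia. CDK19 was lower in shCDK19 cells by -1.50 ± 0.11, -1.08 ± 0.088, -1.56 ± 0.087 and -1.10 ± 0.14 in the same order. Of 10 colorectal epithelial markers, 5 lay above the 75th percentile of every array (KRT8, KRT18, KRT19, EPCAM and CLDN7), whereas the brush border gene VIL1 lay below the median on all 35. Leukocyte markers were mostly dim: 11 of 18 lay below the median of every array, and PTPRC, which defines leukocytes, reached at most 4.62 and sat at the floor on 13 arrays. PRF1 and NKG7, with means of 8.03 and 7.79, lay above the median and below the 75th percentile on all 35.

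APOBEC3G, an enzyme with a pair of deaminase domains and the best studied restriction factor of HIV, had the widest range of the family. In normal growth its log2 signal was 5.60, 5.76 and 5.48 in shControl cells, 9.00, 9.41 and 9.66 in shCDK8 cells and 6.93, 7.07 and 6.47 in shCDK19 cells. The 3 lines did not overlap, and the shCDK8 mean stood 3.74 ± 0.20 (SE, n = 3 per line) above shControl, which is 13.4-fold. In hypoxia it was 5.74 and 5.66 in shControl cells, 8.98 and 9.39 in shCDK8 cells and 6.59 and 6.66 in shCDK19 cells, again with 3 separate levels and an shCDK8 excess of 3.49 ± 0.15 (11.2-fold). In low glucose the order of the knockdown lines was the opposite: 5.51, 5.76 and 5.45 in shControl cells, 6.77, 6.91 and 6.95 in shCDK8 cells and 7.69, 7.72 and 7.38 in shCDK19 cells. The shCDK8 excess there was 1.30 ± 0.10 (2.47-fold). After 5FU all lines lay close together, at 5.70 and 5.78 in shControl, 5.83 and 6.14 in shCDK8 and 5.84 and 6.01 in shCDK19 cells. That shCDK8 excess was 0.25 ± 0.14, beside a CDK8 difference of -2.74 after 5FU and -2.12 in normal growth.

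The shControl line gave low APOBEC3G signals throughout. Its 15 arrays ranged from 5.45 in low glucose to 6.0 in DMSO, so no medium or drug of the series brought control cells to the level of the knockdown lines in normal growth. Between 2 and 3 arrays per group limit the precision, and the arrays measured whole cultures, so more expressing cells and more RNA per cell cannot be told apart. Of the leukocyte markers, 0 of 18 were 2-fold higher or more in shCDK8 than in shControl cells in any of the 4 experiments. Over all genes 0.375% to 2.14% were, and 11 of the 18 lay below the median of every array, so the count says little. Their summed linear signal was 1797 to 2285 in shCDK8 and 1813 to 1856 in shControl cells in normal growth, and 2033 to 2203 against 1924 to 2571 in hypoxia.

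**Figure D1:**
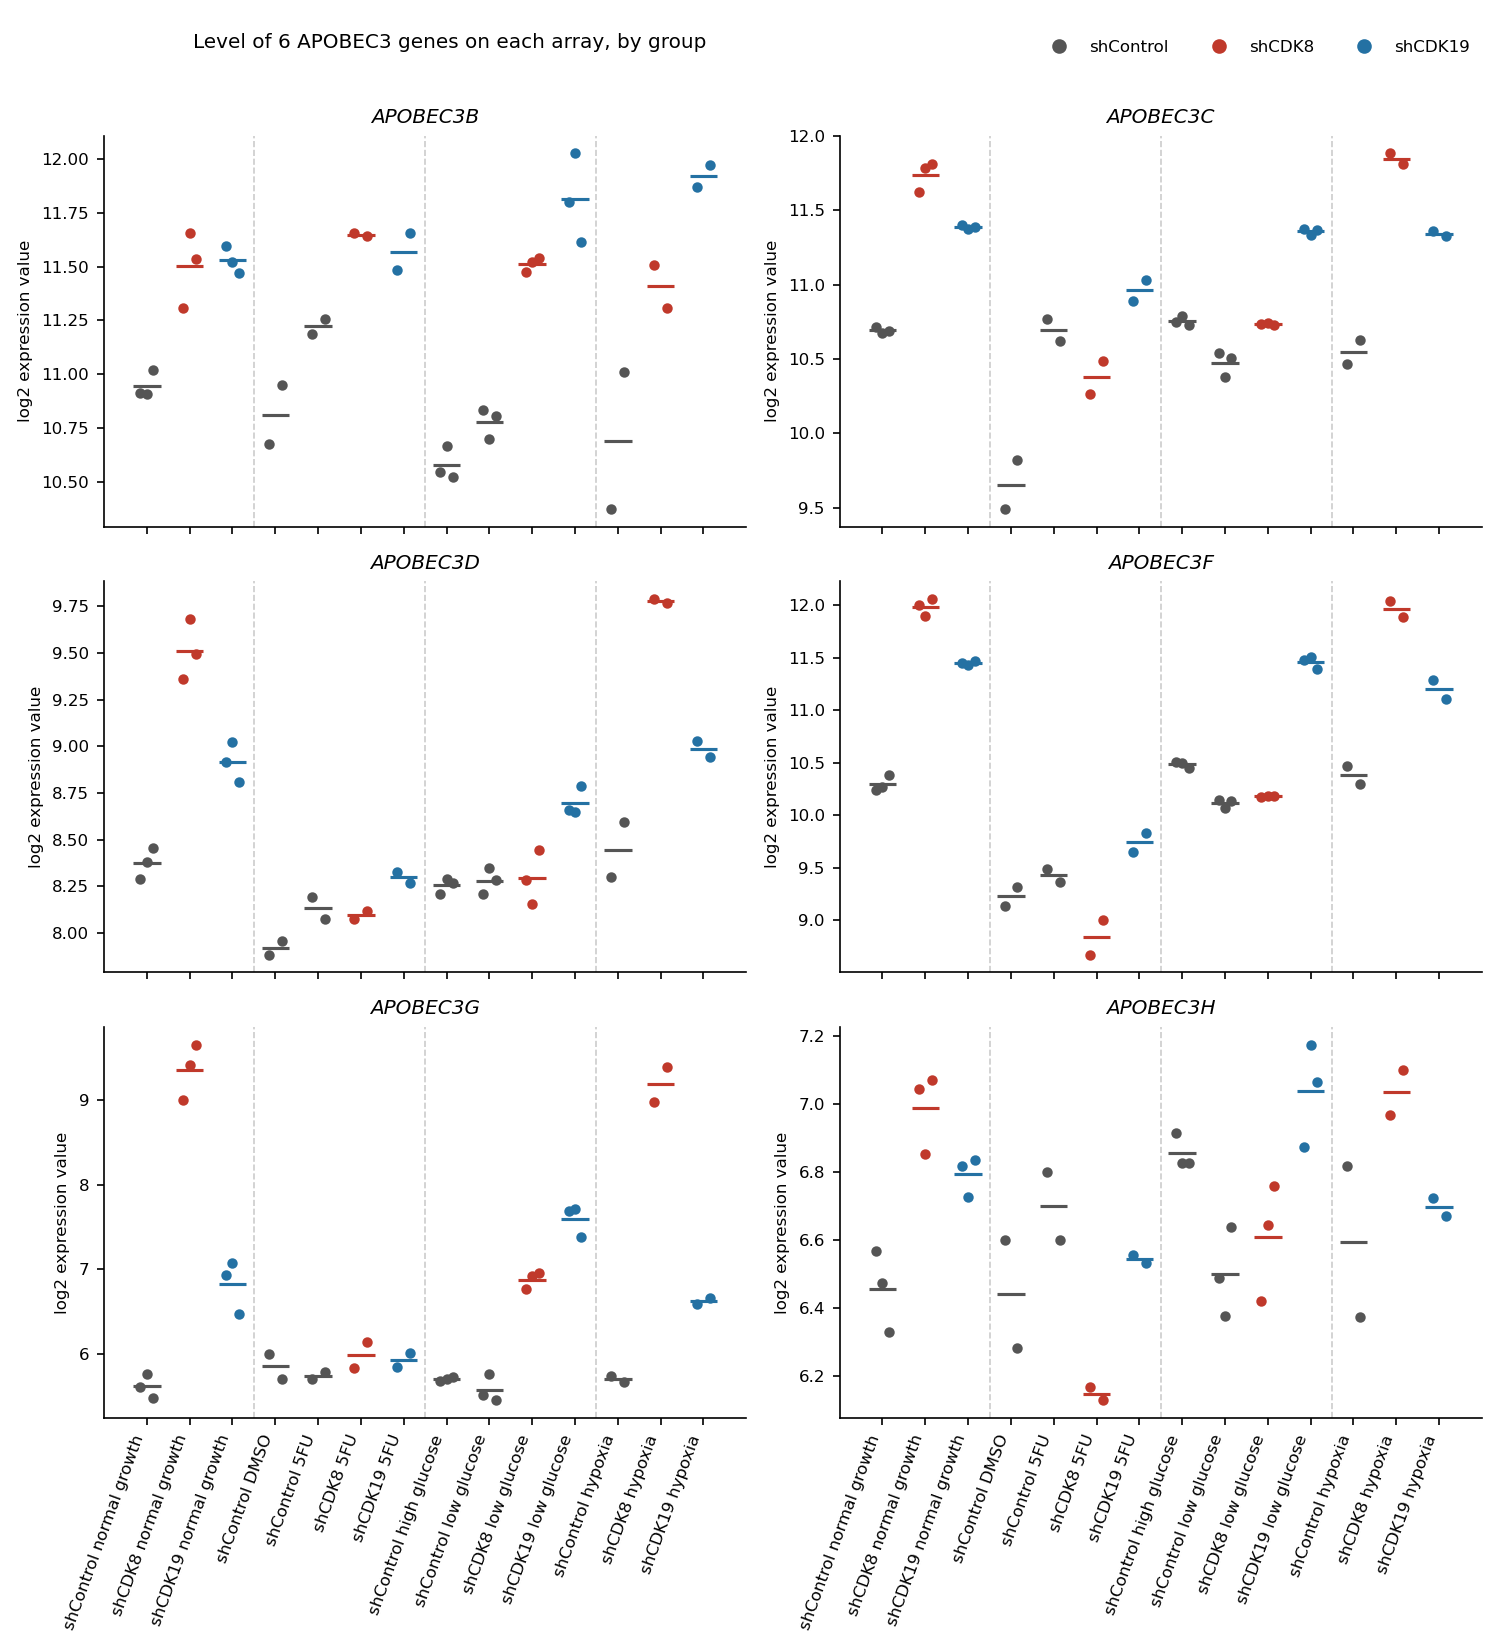
Log2 signal of the 6 APOBEC3 genes on each of the 35 arrays (points) with the group mean (bar), by group on the horizontal axis and coloured by hairpin line; dashed lines separate the 4 experiments and each panel has its own vertical range. APOBEC3G reached 9.00 to 9.66 in shCDK8 cells in normal growth and stayed between 5.45 and 6.0 on all shControl arrays.

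APOBEC3F, like APOBEC3G an enzyme with a pair of deaminase domains that enters HIV particles, followed the same order in normal growth. It measured 10.24, 10.27 and 10.38 in shControl, 12.00, 11.90 and 12.06 in shCDK8 and 11.45, 11.43 and 11.47 in shCDK19 cells. The lines were separate, and shCDK8 cells stood 1.69 ± 0.055 (3.23-fold) above shControl. In hypoxia the values were 10.47 and 10.29, 12.04 and 11.88, and 11.29 and 11.11 in the same order of lines. In low glucose shCDK8 cells, at 10.18, 10.19 and 10.19, stood only 0.066 ± 0.040 above the 10.14, 10.07 and 10.14 of shControl cells, while shCDK19 cells reached 11.48, 11.51 and 11.39. After 5FU the shCDK8 line had the lowest APOBEC3F signals of the series, 8.67 and 9.01, below the 9.49 and 9.36 of shControl and the 9.65 and 9.83 of shCDK19 cells. The shCDK8 difference there was -0.59 ± 0.14. In shControl cells APOBEC3F also differed between experiments, from 9.13 and 9.32 in DMSO to 10.51, 10.49 and 10.45 in high glucose. A second cluster that lists APOBEC3F alone gave shCDK8 differences of 1.68, -0.21, 0.10 and 1.89 in normal growth, 5FU, low glucose and hypoxia.

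APOBEC3D, a further enzyme with a pair of domains that acts on HIV, varied less. It measured 8.29, 8.38 and 8.45 in shControl, 9.36, 9.68 and 9.49 in shCDK8 and 8.91, 9.02 and 8.81 in shCDK19 cells in normal growth, and 8.30 and 8.59, 9.79 and 9.77, and 9.03 and 8.94 in hypoxia. The lines were separate in both, with shCDK8 differences of 1.14 ± 0.092 and 1.33 ± 0.12. In low glucose shCDK8 cells (8.28, 8.16 and 8.45) overlapped shControl cells (8.21, 8.35 and 8.28), and shCDK19 cells lay above both at 8.66, 8.65 and 8.79. After 5FU shCDK8 cells (8.07 and 8.12) overlapped shControl cells (8.19 and 8.08), with shCDK19 cells at 8.33 and 8.27.

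APOBEC3B is the mostly nuclear member. It stood higher in both knockdown lines than in shControl cells in all 4 experiments. The means of APOBEC3G did so too, but after 5FU by only 0.25 ± 0.14 in shCDK8 and 0.19 ± 0.14 in shCDK19 cells. In normal growth APOBEC3B measured 10.91, 10.91 and 11.02 in shControl, 11.31, 11.66 and 11.54 in shCDK8 and 11.60, 11.52 and 11.47 in shCDK19 cells. The knockdown lines overlapped each other and not shControl. The shCDK8 differences were 0.55 ± 0.088 in normal growth, 0.43 ± 0.11 after 5FU, 0.73 ± 0.089 in low glucose and 0.72 ± 0.23 in hypoxia, all under 2-fold. After 5FU it measured 11.19 and 11.26 in shControl, 11.66 and 11.64 in shCDK8 and 11.49 and 11.65 in shCDK19 cells. The highest group means of APOBEC3B were those of shCDK19 cells in hypoxia (11.87 and 11.97) and low glucose (11.80, 12.03 and 11.61), which overlapped each other and, in low glucose, the next group. In those conditions shCDK8 cells measured 11.48, 11.52 and 11.54, and 11.51 and 11.31. The hypoxic shControl arrays, at 10.38 and 11.01, were far apart for this gene.

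APOBEC3C has a single deaminase domain and restricts HIV weakly. In normal growth it measured 10.71, 10.68 and 10.69 in shControl, 11.62, 11.79 and 11.81 in shCDK8 and 11.40, 11.38 and 11.39 in shCDK19 cells, 3 separate levels. The shCDK8 difference was 1.05 ± 0.052 there and 1.30 ± 0.090 in hypoxia, where the values were 10.47 and 10.63, 11.89 and 11.81, and 11.36 and 11.33. In low glucose shCDK8 cells at 10.73, 10.74 and 10.73 lay just above shControl cells at 10.54, 10.38 and 10.50, a difference of 0.26 ± 0.044, and shCDK19 cells again lay higher at 11.37, 11.33 and 11.37. After 5FU the shCDK8 arrays (10.27 and 10.49) lay below the shControl arrays (10.77 and 10.62), a difference of -0.32 ± 0.14, and shCDK19 arrays lay at 10.89 and 11.04. The lowest APOBEC3C signals of the series, 9.49 and 9.82, were those of shControl cells in DMSO.

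APOBEC3H, also with a single domain, was among the dimmer members on its own cluster and varied little. In normal growth it measured 6.57, 6.47 and 6.33 in shControl, 7.04, 6.85 and 7.07 in shCDK8 and 6.82, 6.72 and 6.83 in shCDK19 cells. Both knockdown lines stood above shControl, by 0.53 ± 0.080 for shCDK8. The shCDK8 difference was -0.55 ± 0.12 after 5FU (6.17 and 6.13 against 6.80 and 6.60), 0.11 ± 0.10 in low glucose (6.42, 6.64 and 6.76 against 6.49, 6.37 and 6.64) and 0.44 ± 0.17 in hypoxia (6.97 and 7.10 against 6.82 and 6.37). The groups overlapped in low glucose alone. In shCDK19 cells APOBEC3H measured 6.55 and 6.53 after 5FU and 6.87, 7.17 and 7.06 in low glucose, the highest group mean of the gene (7.04 ± 0.15 SD).

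Seen together, 4 of the 6 genes (APOBEC3C, APOBEC3D, APOBEC3F and APOBEC3G) were at least 2-fold higher in shCDK8 than in shControl cells in normal growth and 4 of 6, the same genes, in hypoxia. After 5FU the count was 0 of 6 and in low glucose 1 of 6, APOBEC3G. Over all genes, 1.13% were at least 2-fold higher in normal growth, 0.375% after 5FU, 0.810% in low glucose and 2.14% in hypoxia. None of the 6 was 2-fold lower in normal growth, after 5FU, in low glucose or in hypoxia, where 0.668%, 0.326%, 0.418% and 0.755% of all genes were. Because the set was chosen from this line, nothing is read from these shares. The median difference over the 6 genes was 1.09 in normal growth, -0.18 after 5FU, 0.18 in low glucose and 1.32 in hypoxia, beside -0.023, 0.0088, -0.0017 and -0.071 over all genes.

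**Figure D2:**
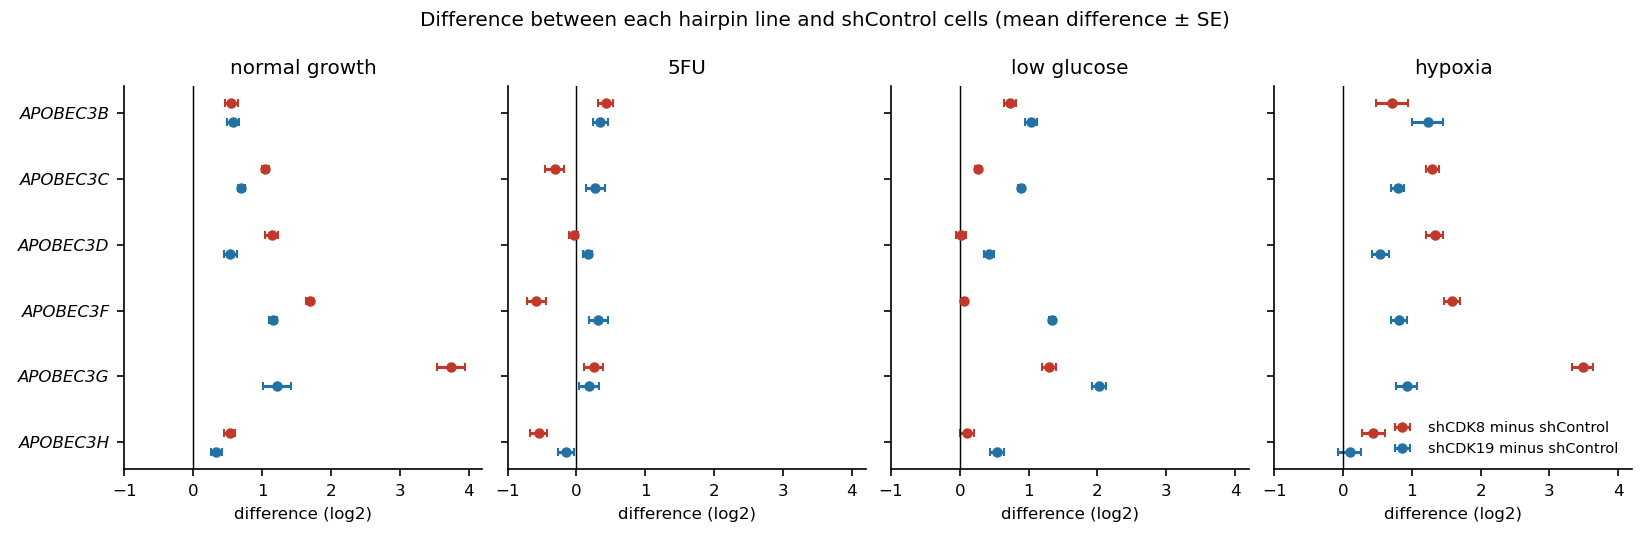
Difference in log2 signal between each knockdown line and shControl cells (points, with SE from the linear model as bars) for the 6 genes in the 4 experiments. In normal growth and hypoxia the shCDK8 point of APOBEC3G stands at 3.74 and 3.49; after 5FU the points of both lines lie between -0.59 and 0.43.

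The shCDK19 line, which the choice of genes did not use, was tested against shControl cells across all genes with limma and Benjamini-Hochberg adjustment. These comparisons share the shControl arrays with those of the shCDK8 line, so their p-values are not independent of how the genes were chosen. In normal growth 6 of 6 APOBEC3 genes were higher in shCDK19 cells at an adjusted p under 0.05, where 3.67% of all genes were higher and 3.40% lower. APOBEC3F rose by 1.16 ± 0.055 (2.23-fold, adjusted p = 3.14e-05) and APOBEC3G by 1.21 ± 0.20 (2.32-fold, adjusted p = 0.0116). APOBEC3C rose by 0.70 ± 0.052 (adjusted p = 0.000334), APOBEC3B by 0.58 ± 0.088 (adjusted p = 0.00743), APOBEC3D by 0.54 ± 0.092 (adjusted p = 0.0129) and APOBEC3H by 0.34 ± 0.080 (adjusted p = 0.0479). For each of the 6 the shCDK19 arrays lay wholly above the shControl arrays. The median of the 6 was 0.64, beside -0.0032 over all genes.

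The calls of APOBEC3B, APOBEC3C and APOBEC3F held when any 1 array was left out, and those of the other members did not. APOBEC3H missed the threshold without any 1 of the 6 arrays (adjusted p of 0.0609 to 0.153). APOBEC3D missed it without shCDK19 replicate 1 or 2 or shControl replicate 1 or 2 (0.0511 to 0.0585), and APOBEC3G without shCDK19 replicate 1 or shControl replicate 1 or 3 (0.0505 to 0.0562). The count was lowest, at 3 of 6, without shCDK19 replicate 1 and without shControl replicate 1.

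In low glucose 6 of 6 members were again higher in shCDK19 than in shControl cells, where 9.11% of all genes were higher and 10.8% lower. APOBEC3G rose most, by 2.02 ± 0.10 (4.06-fold, adjusted p = 1.09e-06). APOBEC3F rose by 1.34 ± 0.040 (2.54-fold, adjusted p = 2.25e-08) and APOBEC3B by 1.03 ± 0.089 (2.05-fold, adjusted p = 3.74e-05). The antiviral single-domain genes rose less, APOBEC3C by 0.88 ± 0.044 (adjusted p = 8.62e-07) and APOBEC3H by 0.54 ± 0.10 (adjusted p = 0.00464), as did APOBEC3D by 0.42 ± 0.073 (adjusted p = 0.00279). All 3 shCDK19 arrays lay above all 3 shControl arrays for each gene, and 6 of 6 remained past the threshold when any 1 array was left out. The median of the 6 was 0.96, beside 0.011 over all genes.

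In hypoxia 0 of 6 passed the threshold in limma, where 0.196% of all genes were higher and 0.0326% lower. Without adjustment 5 of 6 had a p under 0.05, and the one-way analysis of variance without moderated spread called 0. APOBEC3B was 1.23 ± 0.23 higher (adjusted p = 0.153), APOBEC3G 0.93 ± 0.15 (adjusted p = 0.131), APOBEC3F 0.82 ± 0.12 (adjusted p = 0.11) and APOBEC3C 0.80 ± 0.090 (adjusted p = 0.0814). APOBEC3D was 0.54 ± 0.12 higher (adjusted p = 0.203), and both shCDK19 arrays lay above both shControl arrays for these 5 genes. APOBEC3H overlapped between the lines (6.72 and 6.67 against 6.82 and 6.37). The size of the difference depended on which array of the shControl pair, the pair that correlated least, was kept. For APOBEC3B it was 1.55 without shControl replicate 2 and 0.91 without replicate 1. Replicate 1 had the lowest 75th percentile of the 35 arrays, 8.96. The fit of all 35 arrays called 5 of 6.

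After 5FU 0 of 6 members differed between shCDK19 and shControl cells past the threshold in limma, where 0.576% of all genes were higher and 0.261% lower. The count at an unadjusted p under 0.05 was 2 (APOBEC3B and APOBEC3D), and the analysis of variance called 0. APOBEC3G differed by 0.19, with a 95% interval of -0.17 to 0.55, which leaves out the 1.21 measured in normal growth. APOBEC3F differed by 0.32 (-0.024 to 0.66) and APOBEC3B by 0.35 (0.082 to 0.61). APOBEC3H was the only member with a lower mean in shCDK19 cells, by -0.16 (-0.45 to 0.14).

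The change of the shCDK19 difference between experiments was tested directly, as an interaction in the fit of all 35 arrays. Between 5FU and normal growth the difference was smaller for 3 of 6 members, where 1.81% of all genes had a lower value and 2.18% a higher one: APOBEC3F by -0.84 ± 0.12 (adjusted p = 7.23e-05), APOBEC3G by -1.03 ± 0.24 (adjusted p = 0.0135) and APOBEC3C by -0.43 ± 0.11 (adjusted p = 0.028). The same value was -0.38 ± 0.13 for APOBEC3D (adjusted p = 0.125), -0.49 ± 0.17 for APOBEC3H (adjusted p = 0.128) and -0.24 ± 0.19 for APOBEC3B (adjusted p = 0.796). APOBEC3F held when any 1 array was left out. APOBEC3G missed the threshold without shCDK19 5FU replicate 1 (adjusted p = 0.0842) or shControl 5FU replicate 2 (0.0668). APOBEC3C missed it with each array's median subtracted (adjusted p = 0.156), and without shCDK19 5FU replicate 1 (0.186), shControl 5FU replicate 1 (0.188), shControl normal growth replicate 2 (0.0587) or 3 (0.0549), or shCDK19 normal growth replicate 1 (0.0557) or 3 (0.0534). Experiment and drug cannot be told apart in this comparison, since knockdown cells in DMSO are not among the arrays.

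Between low glucose and normal growth 0 of 6 interactions passed the threshold in limma (2 at an unadjusted p under 0.05, 0 in the analysis of variance), where 0.989% of all genes had a higher value and 0.799% a lower one. APOBEC3G came closest, with an shCDK19 difference larger by 0.81 ± 0.22 in low glucose (adjusted p = 0.057). It was past the threshold without shCDK19 low glucose replicate 3 (0.92, adjusted p = 0.0346) or shCDK19 normal growth replicate 2 (0.93, adjusted p = 0.0334), and with the replicate number as a block (adjusted p = 0.0404). Experiment and glucose cannot be told apart in these low glucose values, since knockdown cells in high glucose were not analysed here. Between hypoxia and normal growth the count was also 0 of 6 (2 unadjusted, 0 in the analysis of variance), where 1.52% of all genes had a higher value and 0.560% a lower one. APOBEC3B had the largest value, 0.65 ± 0.19 (adjusted p = 0.0749). Without shControl hypoxia replicate 2 it was 0.96, and without replicate 1 it was 0.33. The value of APOBEC3F was -0.34 ± 0.12, and -0.42 without replicate 2.

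Treatments were compared within shControl cells. After 5FU 1 of 6, APOBEC3C, was higher than in DMSO, by 1.04 ± 0.14 (2.06-fold, adjusted p = 0.0121), where 7.17% of all genes were higher and 4.29% lower. Its 2 arrays after 5FU, 10.77 and 10.62, lay above the 2 in DMSO, 9.49 and 9.82. The adjusted p was 0.087 without 5FU replicate 1, 0.0642 without 5FU replicate 2 and 0.0536 in the analysis of variance, so the call rests on both arrays. APOBEC3B was 0.41 ± 0.11 higher (adjusted p = 0.0673), and passed the threshold without DMSO replicate 2 (0.55, adjusted p = 0.0241). APOBEC3G, at 5.70 and 5.78 after 5FU and 6.0 and 5.70 in DMSO, overlapped between the groups. APOBEC3D measured 7.88 and 7.96 in DMSO, its lowest group, and 8.19 and 8.08 after 5FU (0.22 ± 0.063, adjusted p = 0.0906).

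In low against high glucose 3 of 6 were lower, where 17.3% of all genes were lower and 13.9% higher. APOBEC3F fell by 0.37 ± 0.040 on the log2 scale (adjusted p = 7.35e-05), from 10.51, 10.49 and 10.45 to 10.14, 10.07 and 10.14. APOBEC3C fell by 0.28 ± 0.044 (adjusted p = 0.000726), from 10.75, 10.79 and 10.73 to 10.54, 10.38 and 10.50, and APOBEC3H by 0.36 ± 0.10 (adjusted p = 0.0234), from 6.91, 6.83 and 6.82 to 6.49, 6.37 and 6.64. The groups did not overlap for these 3 genes, and all 3 changes were under 2-fold. APOBEC3H missed the threshold without low glucose replicate 1 or 2 or any 1 of the high glucose arrays (adjusted p of 0.0505 to 0.089). APOBEC3B measured 10.55, 10.67 and 10.52 in high and 10.83, 10.70 and 10.81 in low glucose (0.20 ± 0.089, adjusted p = 0.119).

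Hypoxic and normally grown cells came from different experiments, so hypoxia and experiment cannot be told apart. In shControl cells 0 of 6 members differed in limma (0 at an unadjusted p under 0.05, 0 in the analysis of variance), where 21.1% of all genes were higher and 26.7% lower. The values depended on which hypoxic shControl array was kept. APOBEC3B differed by -0.57 without hypoxia replicate 2 and by 0.062 without replicate 1. In the same order APOBEC3C differed by -0.22 and -0.068, and APOBEC3H by 0.36 and -0.082. In shCDK19 cells APOBEC3B was higher in hypoxia by 0.39 ± 0.13 (adjusted p = 0.0243), where 11.1% of all genes were higher, and APOBEC3F fell by 0.25 ± 0.084 on the log2 scale (adjusted p = 0.0222), where 20.2% were lower. The call of APOBEC3B was lost without shCDK19 hypoxia replicate 1 (adjusted p = 0.0597) or 2 (0.172) or shCDK19 normal growth replicate 2 (0.0537) or 3 (0.0677), and that of APOBEC3F without shCDK19 hypoxia replicate 2 (0.309) or normal growth replicate 3 (0.0534). The second APOBEC3F cluster gave -0.054 (adjusted p = 0.772). In shCDK8 cells 0 of 6 differed by 2-fold, as did 0.206% of all genes upwards and 0.0163% downwards, and APOBEC3G differed by -0.17 ± 0.17.

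**Figure D3:**
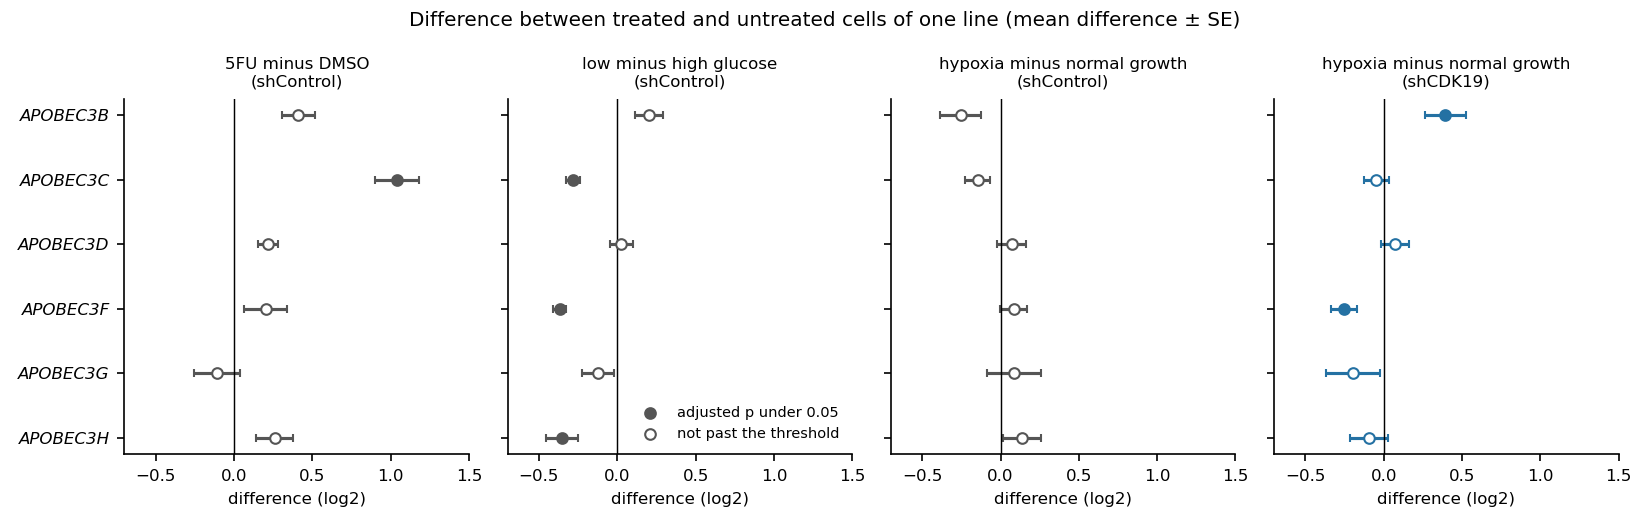
Difference in log2 signal between treatments within a line (points, with SE from the linear model as bars); filled points passed an adjusted p of 0.05 in limma. In shControl cells APOBEC3C lies at 1.04 after 5FU, and in low glucose APOBEC3C, APOBEC3F and APOBEC3H lie at -0.28, -0.37 and -0.36.

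Across the 14 group means APOBEC3G spanned 13.7-fold, APOBEC3F 8.88-fold, APOBEC3C 4.58-fold, APOBEC3D 3.63-fold, APOBEC3B 2.54-fold and APOBEC3H 1.85-fold. The standard deviation of these means was 1.28 for APOBEC3G and 1.00 for APOBEC3F, larger than in 99.8% and 99.3% of all genes, and 0.25 for APOBEC3H, larger than in 54.4%. For APOBEC3G the order ran from shCDK8 cells in normal growth (mean 9.36 ± 0.33 SD) and hypoxia (9.19 ± 0.29), which overlapped, to shCDK19 cells in low glucose (7.59 ± 0.19). Below these came shCDK8 cells in low glucose and shCDK19 cells in normal growth and hypoxia, which overlapped each other from one group to the next (6.88 ± 0.099, 6.83 ± 0.31 and 6.63 ± 0.051). The remaining 8 groups, all shControl groups and all 5FU groups, had means from 5.58 to 5.99, with no gap between neighbouring groups. Of the 13 pairs of neighbouring groups in the order of a gene, the arrays were separate in 9 for APOBEC3F, 7 for APOBEC3C, 6 for APOBEC3D, 3 for APOBEC3G, 2 for APOBEC3B and 1 for APOBEC3H.

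The members varied together to different degrees. Over the 35 arrays, which share lines and experiments, Pearson's r was 0.89 for APOBEC3C with APOBEC3D, for APOBEC3C with APOBEC3F and for APOBEC3D with APOBEC3F, 0.88 for APOBEC3D with APOBEC3G and 0.78 for APOBEC3F with APOBEC3G. It was 0.34 for APOBEC3B with APOBEC3F. Within the 10 shCDK8 arrays r between APOBEC3F and APOBEC3G was 0.98 and within the 10 shCDK19 arrays 0.79, but within the 15 shControl arrays it was -0.49. In shControl cells APOBEC3F ranged from 9.13 to 10.51 while APOBEC3G stayed between 5.45 and 6.0. These values are descriptions, since arrays of a line are not independent of their group.

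**Figure D4:**
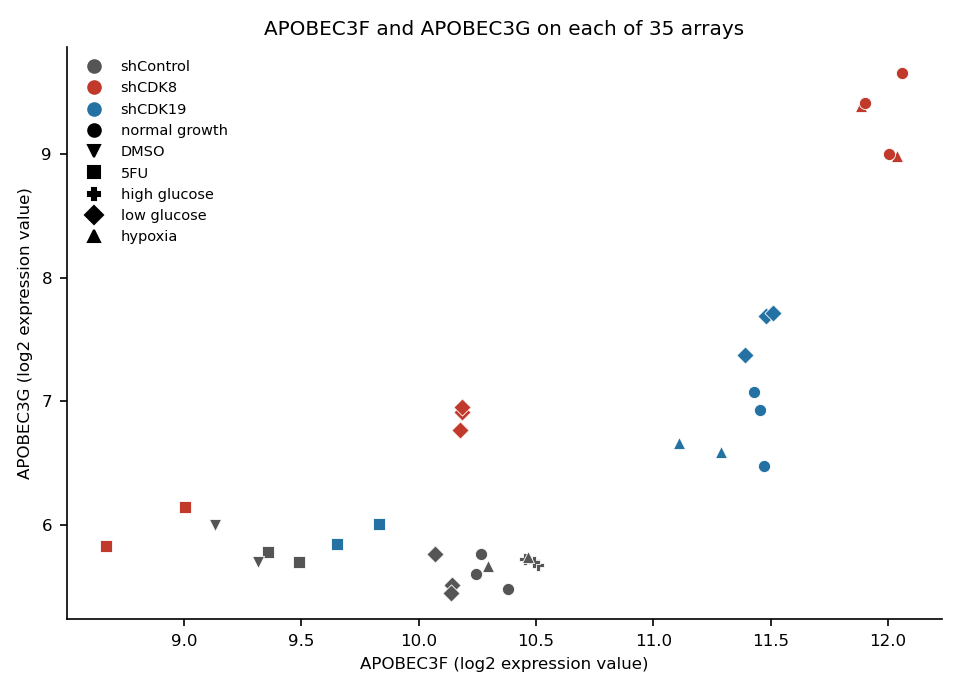
Log2 signal of APOBEC3F (horizontal axis) and APOBEC3G (vertical axis) on each of the 35 arrays, coloured by hairpin line and shaped by condition. In shControl cells APOBEC3G is flat, at 6.0 or less, over the whole range of APOBEC3F, whereas in shCDK8 cells both genes are low after 5FU, intermediate in low glucose and high in normal growth and hypoxia.

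The genes outside the family whose pattern was most like that of a member were found by Pearson's r over the 35 arrays, for the 4 members whose group means had a standard deviation above 0.5. For APOBEC3G they were LYZ, which encodes lysozyme (r = 0.96), the matricellular gene SPARC (0.94), the phosphoinositide 3-kinase subunit PIK3R1 (0.93), the dopamine receptor DRD1 (0.92) and the cytokine gene TNFSF18 (0.92). LYZ differed between shCDK8 and shControl cells by 5.44 ± 0.11 in normal growth, 0.13 ± 0.15 after 5FU, 1.29 ± 0.14 in low glucose and 4.89 ± 0.12 in hypoxia, the same order of experiments as APOBEC3G. LYZ and the other genes named here were picked by r over these same arrays, so likeness of their differences is no separate evidence. Within shControl cells, where both genes were dim, r between LYZ and APOBEC3G was -0.38. For APOBEC3F they were the integrin ITGB8 (0.96), the tensin TNS2 (0.95), ADAMTS14 (0.94), the proteoglycan gene HSPG2 (0.94) and HOXB5 (0.93). ITGB8 differed between shCDK8 and shControl cells by 1.77 ± 0.098, -0.43 ± 0.14, -0.032 ± 0.080 and 2.04 ± 0.16 in normal growth, 5FU, low glucose and hypoxia, and so was also lower in shCDK8 cells after 5FU. APOBEC3D shared TNS2, HOXB5 and HSPG2 with that list and added SH3BP4 and SUSD2 (r from 0.90 to 0.92). For APOBEC3C they were TNS4, ITGB8, ANO1, CYFIP2 and RRBP1 (0.86 to 0.91). An r over all arrays also holds the differences between lines, and not every pair kept it within a line. ITGB8 with APOBEC3F gave 0.71 in shControl, 0.98 in shCDK8 and 0.99 in shCDK19 cells. In shCDK19 cells CYFIP2 with APOBEC3C gave -0.75 and PIK3R1 with APOBEC3G 0.37. In shControl cells SUSD2 with APOBEC3D gave 0.058.

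The genes beside the APOBEC3 cluster were compared in the order of the RefSeq gene table, 5 measured genes on each side: GTPBP1, SUN2, DNAL4, NPTXR and CBX6 before, and CBX7, PDGFB, RPL3, SNORD83B and SNORD83A after. None of the 10 differed by 2-fold between shCDK8 and shControl cells in any of the 4 experiments. Over all genes 0.375% to 2.14% were 2-fold higher and 0.326% to 0.755% lower, so this count says little for 10 genes. In normal growth their differences ran from -0.48 ± 0.041 for SUN2, a nuclear envelope gene, to 0.55 ± 0.056 for NPTXR, a synaptic pentraxin receptor, which equals that of APOBEC3B. In shCDK19 cells 2 of the 10 rose in normal growth, beside 3.67% of all genes. They were NPTXR (0.49 ± 0.056, adjusted p = 0.0022) and the Polycomb gene CBX6 (0.42 ± 0.065, adjusted p = 0.00845). In low glucose 4 of 10 rose, beside 9.11% of all genes: NPTXR by 0.37, CBX6 by 0.36, the Polycomb gene CBX7 by 0.17 and the growth factor gene PDGFB by 0.39. The cluster that lists APOBEC3A with APOBEC3A_B, at the near end of the family, differed by 0.18 ± 0.036 in shCDK8 and 0.086 ± 0.036 in shCDK19 cells in normal growth (adjusted p = 0.355 for shCDK19).

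**Figure D5:**
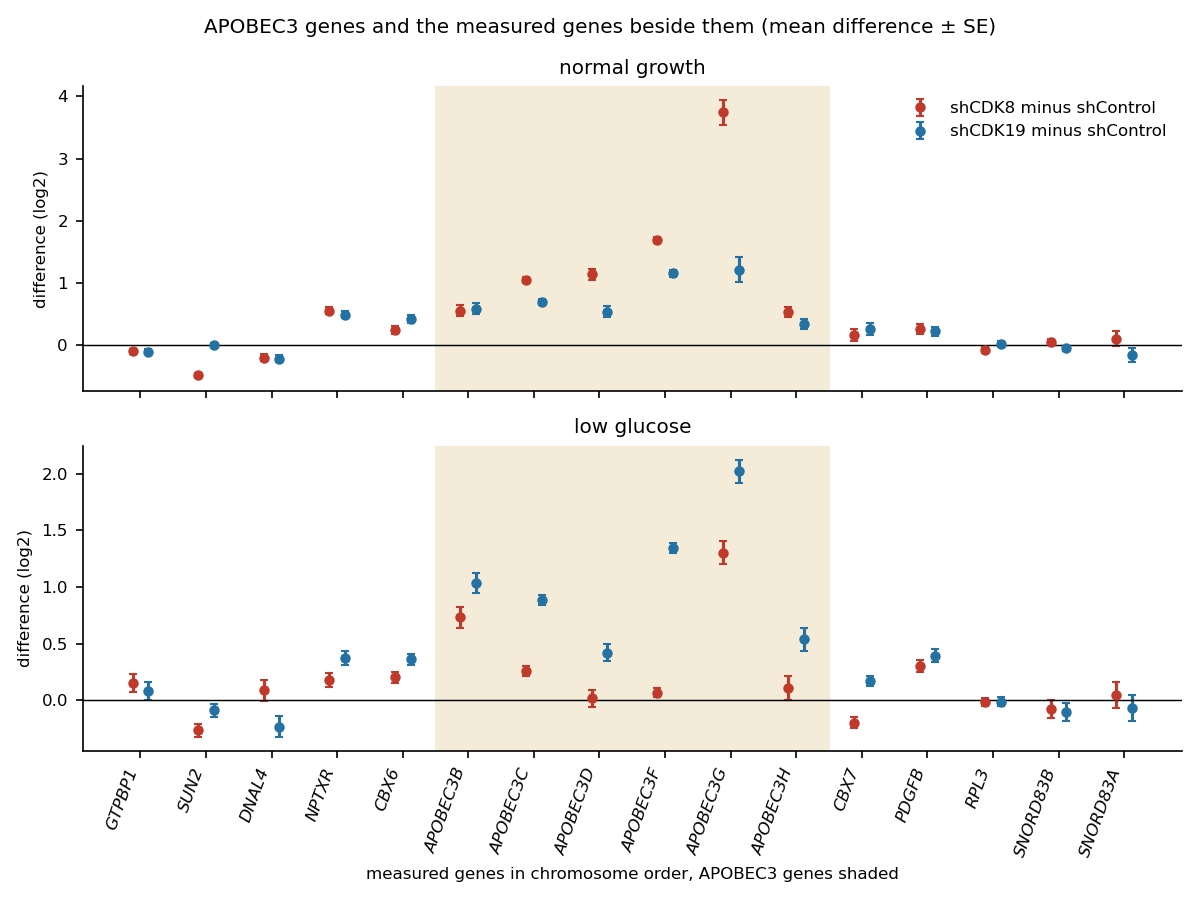
Difference in log2 signal from shControl cells (points, with SE from the linear model as bars) for the 6 APOBEC3 genes (shaded) and the 5 measured genes on each side, in chromosome order, in normal growth and low glucose. In normal growth the 10 flanking genes lie between -0.48 and 0.55 in both lines, and the highest point is APOBEC3G in shCDK8 cells at 3.74.

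Other genes of the same processes were counted from lists, and these counts are to be read beside the shares of all genes. In shCDK8 cells 1.13% of all genes were 2-fold higher and 0.668% lower in normal growth. The shares in hypoxia were 2.14% and 0.755%. In shCDK19 cells 3.67% were called higher and 3.40% lower in normal growth, and 9.11% and 10.8% in low glucose. Of 11 measured genes of the wider editing family, 0 were 2-fold higher in shCDK8 cells in normal growth and 1 was 2-fold lower, CDA, which deaminates free cytidine (-1.27 ± 0.062, and -1.64 ± 0.17 in hypoxia). ADAT1, a tRNA editing enzyme, was 1.12 ± 0.15 higher in hypoxia. In shCDK19 cells ADAT2 rose (0.35 ± 0.077, adjusted p = 0.0349) and ADAT3 fell (-0.39 ± 0.078, adjusted p = 0.0257) in normal growth, and in low glucose CDA (-0.44) and ADAT3 (-0.33) fell, 2 of 11. The list medians were -0.067 in shCDK8 and 0.046 in shCDK19 cells in normal growth, beside -0.023 and -0.0032 over all genes.

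Of 16 genes that remove uracil and repair the gap, 0 differed by 2-fold in shCDK8 cells in normal growth. In shCDK19 cells 1 of 16 rose in normal growth, beside 3.67% of all genes: the endonuclease APEX2 (0.24 ± 0.054, adjusted p = 0.0358). In low glucose 4 of 16 rose, beside 9.11%: APEX2 (0.77 ± 0.069, adjusted p = 4.71e-05), the uracil glycosylase UNG (0.51 ± 0.063, adjusted p = 0.000355), the ligase LIG1 (0.34) and APEX1 (0.14). After 5FU 1 fell, beside 0.261% of all genes: the glycosylase MBD4 (-1.08 ± 0.097, adjusted p = 0.0154). In shControl cells 4 of 16 rose and 2 fell after 5FU against DMSO, beside 7.17% and 4.29% of all genes. They include the glycosylase TDG (0.57 ± 0.12, adjusted p = 0.0353) and the repair scaffold XRCC1 (-0.49 ± 0.051, adjusted p = 0.007). In low against high glucose 6 of 16 fell and 1 rose in shControl cells, beside 17.3% and 13.9% of all genes. Among those that fell was UNG (-0.62 ± 0.063, adjusted p = 4.23e-05). In hypoxic against normally grown shControl cells 13 of 16 fell and 1 rose, beside 26.7% and 21.1% of all genes, with UNG at -0.79 ± 0.11 (adjusted p = 3.4e-06). The counts were the same in shCDK19 cells, beside 20.2% and 11.1%, with UNG at -1.10 ± 0.11 (adjusted p = 1.72e-08).

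Of 23 other measured antiviral restriction factors, 0 were 2-fold higher in shCDK8 cells in normal growth, after 5FU or in low glucose. In hypoxia 2 were, beside 2.14% of all genes: the RNA-activated kinase EIF2AK2 (1.20 ± 0.39) and IFIT1 (1.01 ± 0.079). In shCDK19 cells 3 of 23 rose and 1 fell in normal growth, beside 3.67% and 3.40% of all genes. They were led by IFIT2 (0.43 ± 0.065, adjusted p = 0.00743) and SERINC5, which blocks retroviral entry (0.38 ± 0.050, adjusted p = 0.00447). In low glucose 9 of 23 rose and 1 fell, beside 9.11% and 10.8% of all genes. IFIT1 stood at 0.98 ± 0.11 (adjusted p = 0.000223), IFIT2 at 0.85 ± 0.15 (adjusted p = 0.00266), IFIT3 at 0.74 ± 0.079 (adjusted p = 0.000151) and SERINC5 at 0.71 ± 0.052 (adjusted p = 1.26e-05). In shControl cells 6 of 23 were lower and 3 higher in low than in high glucose, beside 17.3% and 13.9% of all genes. These include OAS3 at -1.27 ± 0.11 (adjusted p = 1.5e-05) and IFIT1 at -0.97 ± 0.11 (adjusted p = 9.5e-05). The medians of the list in shCDK19 cells were 0.058 in normal growth and 0.16 in low glucose, beside -0.0032 and 0.011 over all genes.

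Of 16 measured genes of interferon signalling, 0 differed by 2-fold in shCDK8 cells in normal growth, and 0 were called in shCDK19 cells in normal growth. In low glucose 1 rose, USP18 (0.43), and 2 fell, STAT3 (-0.36) and IRF9 (-0.30), beside 9.11% and 10.8% of all genes. Of 14 NF-kB subunits and inhibitors, 0 differed by 2-fold in shCDK8 cells in normal growth. In shCDK19 cells the subunit REL rose (0.49 ± 0.074, adjusted p = 0.00763) and the inhibitor NFKBIA fell (-0.36 ± 0.057, adjusted p = 0.00909) in normal growth, where 3.67% of all genes were higher and 3.40% lower. In low glucose 4 of 14 fell, beside 10.8% of all genes, with CHUK at -0.47 and NFKBIA at -0.40. Of 14 genes of the cell cycle complexes at E2F sites, TFDP2, a dimerisation partner of E2F, was 2-fold lower in shCDK8 cells (-1.15 ± 0.12) and fell in shCDK19 cells (-0.84 ± 0.12, adjusted p = 0.00689) in normal growth, where MYBL2 (-0.31) and LIN52 (-0.22) fell as well.

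Of 10 epithelial markers, 2 were at least 2-fold lower and 0 higher in shCDK8 cells in normal growth, and likewise in hypoxia. Over all genes 0.668% were 2-fold lower in normal growth and 0.755% in hypoxia. CDH1, which encodes E-cadherin, and EPCAM differed from shControl cells by -1.70 ± 0.074 and -1.31 ± 0.045 in normal growth and by -1.36 ± 0.090 and -1.13 ± 0.090 in hypoxia, the experiments in which the shCDK8 excess of APOBEC3G was 3.74 and 3.49, and neither was 2-fold lower after 5FU or in low glucose. The median over the 10 markers was -0.068 in normal growth and -0.40 in hypoxia, beside -0.023 and -0.071 over all genes. In shCDK19 cells 4 of 10 markers rose in normal growth and 0 fell, beside 3.67% and 3.40% of all genes, with CDH1 at 0.42 ± 0.074 (adjusted p = 0.0143). The summed linear signal of the 10 markers was 27778 to 29195 in shCDK8 and 28742 to 29392 in shControl cells in normal growth, which overlapped, and 30637 to 31007 against 33428 to 33892 in hypoxia, which did not. The part of these markers in the APOBEC3 values was not tested.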

How the data were processed

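Total RNA of HCT116 cells was hybridised to Affymetrix whole-transcript arrays, per the labels' protocols. The deposited log2 values were made by the authors in Partek (version not given), per the submitters' processing notes; the scale was judged from the values, and how background and arrays were adjusted is not given. All arrays share a floor, so folds of dim genes may be shortened. Changes are read as relative to other genes, since the adjustment of arrays is not given. Of 32321 transcript clusters 19158 had 1 gene symbol, 1388 several and 11775 none. For 637 genes with over 1 cluster the one with the highest mean was kept, leaving 18404 genes.

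Lines and treatments were compared by limma 3.58.1 (functions lmFit and eBayes; R 4.3.3, data.table, version 1.17.8), 1 mean per group, all arrays of an experiment sharing the spread; hypoxia against normal growth and interactions used all 35 arrays. P-values are two-sided and Benjamini-Hochberg adjusted over all genes, with a threshold of 0.05; the method was tested on simulated data. Alternatives were median scaling, a filter on dim genes, a replicate block, another set of arrays, array weights and leaving out each array. One-way analysis of variance, which the submitters used, was added in the form of a t test of each contrast without moderated spread. For interactions and for hypoxia against normal growth it spanned all 35 arrays, which is not the submitters' test within an experiment. Symbols come from the platform annotation and gene order from RefSeq genes. The 6 members and all lists were chosen with earlier results of these data known. Named genes were the members, up to 4 list genes per comparison by size of change, the 5 measured genes on each side, the 5 most similar genes and the hairpin targets. Figures were drawn with matplotlib 3.10.9.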

Additional observations from a re-analysis of the deposited data

Results flagged for a closer look

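The shCDK19 difference from shControl cells was smaller after 5FU than in normal growth by the interaction test for APOBEC3F (-0.84 ± 0.12, adjusted p = 7.23e-05 in limma), APOBEC3G (-1.03 ± 0.24, adjusted p = 0.0135) and APOBEC3C (-0.43 ± 0.11, adjusted p = 0.028). In the shCDK8 line both 5FU arrays lay below both shControl arrays, and every array of the line lay above shControl in other experiments, for APOBEC3F (-0.59 after 5FU, above in normal growth, low glucose and hypoxia), APOBEC3C (-0.32, above in the same 3) and APOBEC3H (-0.55, above in normal growth and hypoxia). These differences between experiments in shCDK8 cells were not tested. APOBEC3H also lay lower in both shCDK19 arrays after 5FU (-0.16) and higher in all shCDK19 arrays in normal growth and low glucose; the interaction of 5FU with normal growth gave an adjusted p of 0.128, and the contrast with low glucose was not tested. All groups held 2 or 3 arrays, too few to test single arrays as outliers.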

How the results depend on the processing

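No value of a member that had passed the threshold changed sign under any alternative. The count of 6 of 6 in shCDK19 cells in low glucose stayed at 6 under each alternative except the filter on dim genes, which removes APOBEC3G and APOBEC3H and left 4 of 4. In normal growth the count was 4 to 6 without leaving out arrays, the lowest being 4 of 4 with the filter. APOBEC3H lost its call in 10 of 11 settings. For shCDK19 in hypoxia the count of 0 became 1 with array medians subtracted, 2 with the filter on dim genes, 5 in the fit of all 35 arrays and 1 with the other APOBEC3F cluster (an alternative chosen after seeing the data). After 5FU the fit of all 35 arrays called 1, APOBEC3F. For 5FU against DMSO the count of 1 became 2 with array medians subtracted, 2 with the filter, 2 with all 35 arrays (APOBEC3B joining in each) and 0 in the analysis of variance. For hypoxia in shCDK19 cells the count of 2 became 1 with array medians subtracted and 1 with the other APOBEC3F cluster, and 3 with array weights (APOBEC3G joining at -0.36). The 5FU interaction count of 3 became 2 with array medians subtracted (APOBEC3C lost). It was also 2 with the filter, which removes APOBEC3G and lost no call. It became 4 with only the groups compared (APOBEC3H joining, adjusted p = 0.0475 in limma) and 5 with array weights. The low glucose interaction went from 0 to 3 with array weights and to 1 with the replicate block, and the hypoxia interaction from 0 to 1 with the filter. Except for the filter, which changes the number of genes tested, the cause was not tested. The fit for array weights stopped before it converged for some genes.

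Deviations of same-numbered arrays from their group means correlated at -0.62 to 0.37 in normal growth, over 0.1 in 2 of 9 pairs, so the numbers were not taken as pairs. The replicate block changed 2 calls of 66 member results (1 lost, 1 gained). Leaving out each array gave 3 to 5 for shCDK19 in normal growth, 0 to 0 after 5FU, 6 to 6 in low glucose and 0 to 5 in hypoxia. The ranges were 0 to 2 for 5FU against DMSO, 2 to 3 for glucose, 0 to 3 and 0 to 2 for hypoxia in shControl and shCDK19 cells, and 1 to 3, 0 to 1 and 0 to 2 for the interactions of 5FU, low glucose and hypoxia. The APOBEC3G difference of shCDK8 cells in normal growth was 4.0 with array weights, and leaving out arrays gave 3.59 to 3.92 there, 0.091 to 0.40 after 5FU, 1.24 to 1.40 in low glucose and 3.28 to 3.69 in hypoxia. APOBEC3G had no other cluster, so that alternative was not run. Where an arm was left with 1 array, that array was assumed to vary like the other groups. Signal over background limits APOBEC3G in shControl cells and APOBEC3H, whose folds may be shortened.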
